A study of Saccharomyces cerevisiae with 4 samples.

Results

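The genes described here encode proteins of the large subunit of the cytosolic ribosome of Saccharomyces cerevisiae and are listed as carrying an intron. They were chosen by systematic name, from a list of 54 genes in 30 families, 24 families with both copies listed and 6 with 1 copy. Of the 54 genes, 47 are rows of the deposited table of 5500 reading frames, and 38 of those had a value on all 4 arrays and were tested. A further 6 had values on 2 or 3 arrays and 3 had none, and the other 7 were not analysed here. Exon structures were not used, so the intron was not checked gene by gene. In the gene table used for names (assembly R64), RPL29 and RPL32 are annotated with 180 and 393 bp, and neither of these was among the genes tested.

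The large subunit joins amino acids into protein and releases the chain through a tunnel lined by rRNA and several of these proteins. Most yeast ribosomal protein genes exist as a pair of copies, the paralogs A and B, that encode nearly or wholly identical proteins. Introns are rare in this yeast, but a large share of ribosomal protein genes carries one, and because these genes are transcribed so heavily their transcripts make up much of what the spliceosome handles. The genes are controlled together by Rap1, Fhl1, Ifh1 and Sfp1, in step with growth.

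The study set polyadenylated RNA of a strain labelled bre1 against that of wild type on 4 2-colour arrays, with bre1 RNA in Cy3 on arrays 1 and 3 and in Cy5 on arrays 2 and 4. Bre1 is the ubiquitin ligase that, with Rad6, marks histone H2B. The labels give no strain background, kind of mutation, growth condition or age of culture for either strain, and do not say whether the 4 arrays carry separate cultures or a shared pair of extracts, so p-values measure how far the arrays lie apart, a spread that may be technical. The BRE1 transcript (YDL074C) was measured on the arrays with bre1 in Cy3 alone, at log2 ratios of -1.65 and -3.17 on arrays 1 and 3.

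The values themselves show how the authors built them. On arrays 2 and 4, 2 raised to the deposited value was a whole multiple of 1 fixed step (0.000923 and 0.00102) for 100% of values, to within 0.05 of a step. On arrays 1 and 3, the reciprocal was such a multiple (steps of 0.00109 and 0.00106), again for 100% of values. With base e or 10, or with the other sign, 10.2% to 14.6% of values fell on the best step in the 20 combinations tried. The values are therefore log2 ratios, each array was scaled by a single factor, and arrays 1 and 3, those with bre1 in Cy3, were turned relative to arrays 2 and 4, so that all 4 run the same way. Whether the scanner ratio was Cy5 over Cy3, which makes them bre1 over wild type, is not given in the sources used here; that reading was taken, and BRE1 is low on it. On the opposite reading every rise would be a fall.

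In bre1, 22 of the 38 tested genes rose, by 1.55-fold to 2.12-fold, and none fell. Of all 3840 tested genes, 5.89% rose and 4.79% fell (limma, mean log2 ratio of 4 arrays set against 0, adjusted p under 0.05). At an unadjusted p under 0.05, 28 of the 38 genes passed, 0 of them with a mean below 0, against 1158 of all tested genes (30.2%), 534 of them with a mean below 0. The median log2 ratio of the 38 genes was 0.73, against 0.02 over all tested genes, and 36 of the 38 had a mean above 0, against 52.6% of all tested genes. Their ratio was above 0 on all 4 arrays for 25 genes (65.8%), against 19.1% of all tested genes. For the 22 genes the adjusted p ran from 0.0156 to 0.0437. Every one of the 22 calls was lost when array 1 or array 2 was left out, where limma called 0 of the 38 genes; 28 and 27 of them then still had an unadjusted p under 0.05, and their median was 0.72 and 0.71.

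**Figure D1:**
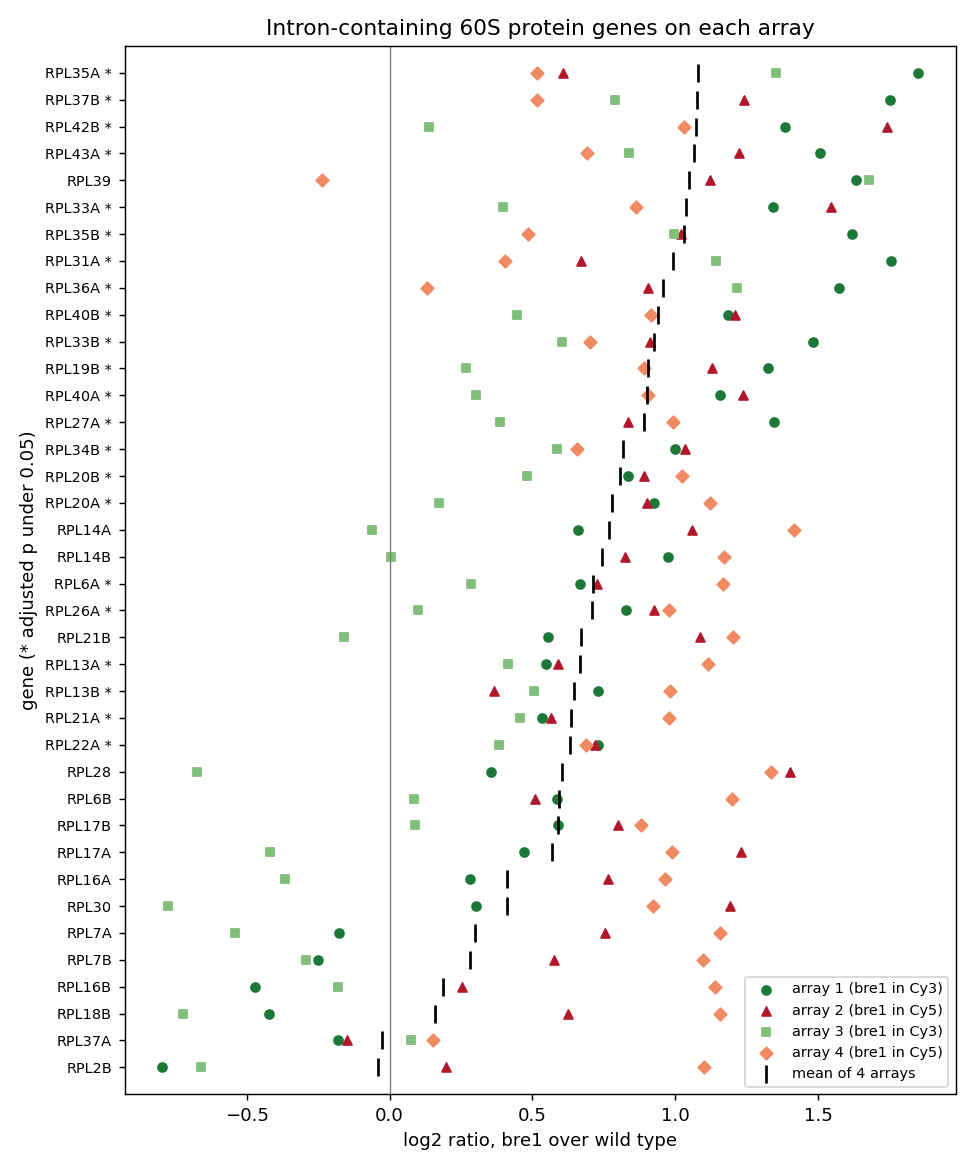
Log2 ratio of bre1 over wild type (x axis) for each of the 38 tested genes (rows, ordered by mean), with 1 symbol per array, a bar at the mean and a star beside the 22 genes with an adjusted p under 0.05. In RPL7A, RPL7B, RPL16B, RPL18B and RPL2B, arrays 1 and 3 lie below 0 and array 4 lies between 1.10 and 1.16; RPL37A is near 0 on all 4.

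The ring of proteins around the tunnel exit, where nascent chains meet chaperones and the signal recognition particle, held some of the largest rises. Rises of like size, 2.05-fold to 2.11-fold, were found in other groups below, for RPL33A, RPL43A, RPL42B and RPL37B. Of 12 listed genes of this ring and the tunnel wall, 8 were tested and 5 rose, a share near the 22 of all 38. Their median log2 ratio was 0.95, against 0.73 for the 38 (the grouping by place in the ribosome was made with the values known). RPL35A (YDL191W), which encodes a protein at the tunnel rim, had log2 ratios of 1.85, 0.61, 1.35 and 0.52 on arrays 1 to 4, a mean of 1.08 ± 0.63 (SD, n = 4, adjusted p = 0.0281). Both arrays with bre1 in Cy3 were the high ones for this gene. Its copy RPL35B (YDL136W) had 1.62, 1.02, 0.997 and 0.48, a mean of 1.03 ± 0.46 (adjusted p = 0.0207), again highest on array 1 and lowest on array 4.

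RPL31A (YDL075W), whose protein is a docking point of the ribosome-associated chaperone complex, lies next to BRE1 on the chromosome. It had log2 ratios of 1.76, 0.67, 1.14 and 0.40 and rose 1.99-fold (adjusted p = 0.0311). RPL19B (YBL027W), whose protein also forms a bridge to the small subunit, rose 1.87-fold, with 1.32, 1.13, 0.27 and 0.89. RPL26A (YLR344W), a tunnel rim protein gene, rose 1.63-fold, with the lowest value, 0.10, on array 3. RPL39 (YJL189W) encodes a very small protein deep in the tunnel wall. Its mean of 1.05 was as high as those of the called genes, but its values were 1.63, 1.12, 1.68 and -0.24, and it did not pass (SD 0.89, adjusted p = 0.0549). The copies RPL17A (YKL180W) and RPL17B (YJL177W), for a protein that reaches into the tunnel, had means of 0.57 ± 0.73 and 0.59 ± 0.36 and did not pass either.

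Proteins that join the first rRNA domains of the pre-ribosome form the largest set, 17 listed genes of which 15 were tested and 7 rose, with a median of 0.67. The rises were led by both copies of RPL33. RPL33A (YPL143W) had log2 ratios of 1.34, 1.55, 0.40 and 0.86, a mean of 1.04 ± 0.51 (n = 4, adjusted p = 0.0225). RPL33B (YOR234C) had 1.48, 0.91, 0.60 and 0.70, a mean of 0.92 ± 0.39 (adjusted p = 0.0219). RPL20B (YOR312C) and RPL20A (YMR242C) rose 1.75-fold and 1.72-fold, and RPL13A (YDL082W) and RPL13B (YMR142C) 1.59-fold and 1.56-fold. RPL6A (YML073C) rose 1.64-fold, while its copy RPL6B (YLR448W) had a mean of 0.59 ± 0.46 with an adjusted p of 0.0801.

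The other tested genes of this set did not pass, and in several the sign alternated with the dye. RPL14A (YKL006W) and RPL14B (YHL001W) were near 0 on array 3, at -0.06 and 0.01, and at 0.66 to 1.41 on the other arrays. RPL7A (YGL076C) had log2 ratios of -0.18, 0.75, -0.54 and 1.16, and RPL7B (YPL198W) had -0.25, 0.58, -0.29 and 1.10. Both were below 0 where bre1 carried Cy3 and above 0 where it carried Cy5, so that their means of 0.30 and 0.28 describe no single array. RPL16B (YNL069C) and RPL18B (YNL301C) showed the same alternation, with -0.47, 0.26, -0.18 and 1.14 for RPL16B and -0.42, 0.62, -0.72 and 1.16 for RPL18B. RPL16A (YIL133C) was below 0 on array 3 alone, at -0.37, with a mean of 0.41 ± 0.59.

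Of the genes for proteins at the catalytic centre, the exit site of tRNA and other late-joining places, 6 of 10 were tested and 3 rose, with a median of 0.65. RPL43A (YPR043W), whose protein joins late beside Rpl2, had the smallest adjusted p of all 38 genes. Its log2 ratios were 1.51, 1.22, 0.84 and 0.69, with a mean of 1.07 ± 0.37 (n = 4, adjusted p = 0.0156), a 2.09-fold rise. RPL42B (YHR141C), for a protein of the tRNA exit site, had 1.38, 1.74, 0.14 and 1.03 and rose 2.10-fold (adjusted p = 0.0323). Here array 3 was the low one, far below the other 3. RPL21A (YBR191W) rose 1.55-fold, with 0.53, 0.57, 0.46 and 0.98, and its copy RPL21B (YPL079W) had 0.55, 1.09, -0.16 and 1.20 and did not pass (adjusted p = 0.0895).

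RPL28 (YGL103W), the gene of cycloheximide resistance known as CYH2, had log2 ratios of 0.35, 1.40, -0.68 and 1.34. Its mean of 0.60 ± 0.98 had the widest spread of the 38 genes (adjusted p = 0.234). RPL2B (YIL018W), whose protein lies beside the peptidyl transferase centre, had -0.80, 0.20, -0.66 and 1.10, a mean of -0.04 ± 0.88. It was the lowest of the 38 genes on array 1, and its mean near 0 came from opposite values and not from 4 values near 0.

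RPL40A (YIL148W) and RPL40B (YKR094C) encode ubiquitin fused to a ribosomal protein, and cleavage of the fusion supplies both free ubiquitin, the substrate of ligases such as Bre1, and a protein of the factor-binding face of the subunit. RPL40A had log2 ratios of 1.16, 1.24, 0.30 and 0.90, a mean of 0.90 ± 0.42 (n = 4, adjusted p = 0.0255). RPL40B had 1.18, 1.21, 0.45 and 0.91, a mean of 0.94 ± 0.35 (adjusted p = 0.0205). The copies moved alike, with array 3 lowest in both. RPS31 (YLR167W), the fusion gene of the small subunit, rose 2.43-fold (mean 1.28 ± 0.51, adjusted p = 0.0141), and the polyubiquitin gene UBI4 had no value on any array. All 3 measured ubiquitin precursor genes thus rose, and all 3 are ribosomal protein genes. Of the tested ribosomal protein genes, 22 of the 38 described here, 16 of 45 small-subunit genes and 3 of 24 other large-subunit genes rose. Of all tested genes, 5.89% rose.

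The remaining listed genes, placed in none of the groups above, numbered 13, of which 7 were tested and 5 rose, with a median of 0.82. Both copies of RPL37 were counted here. RPL37B (YDR500C) had log2 ratios of 1.75, 1.24, 0.79 and 0.52, a mean of 1.07 ± 0.54 (adjusted p = 0.0221). RPL36A (YMR194W) had 1.57, 0.90, 1.22 and 0.13, a mean of 0.96 ± 0.61 (adjusted p = 0.0353), and array 4 was again its low one. RPL27A (YHR010W) and RPL34B (YIL052C) rose 1.85-fold and 1.76-fold. RPL34B was among the even ones, with 0.998, 1.03, 0.59 and 0.65.

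Rpl22 and Rpl30 are known for acting on the splicing of transcripts of their own families. Rpl22 protein binds the intron of RPL22B, which was not analysed here, and hinders its splicing. RPL22A (YLR061W) had log2 ratios of 0.73, 0.72, 0.38 and 0.69, a mean of 0.63 ± 0.17, and its 1.55-fold rise was the smallest among the 22 (adjusted p = 0.0344). Rpl30 protein binds its own transcript and blocks its splicing. RPL30 (YGL030W) had 0.30, 1.19, -0.77 and 0.92, a mean of 0.41 ± 0.87 (adjusted p = 0.379), so that array 3 alone was below 0. The ratios do not separate spliced from unspliced transcripts.

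Both copies were tested for 12 pairs, and in 11 of them the means of the copies lay close together. In 5 pairs both copies rose, in 3 pairs 1 copy rose and in 4 pairs neither passed. The mean log2 ratios of the copies differed by 0.02 to 0.23 in the 11 pairs other than RPL37, and the median difference over all 12 was 0.04. Single arrays differed more: RPL16A minus RPL16B was 0.75, 0.51, -0.19 and -0.17, RPL21A minus RPL21B was -0.02, -0.52, 0.62 and -0.22, and RPL33A minus RPL33B was 0.63 on array 2. In these pairs differences of opposite sign partly cancelled in the mean. Across these 11 pairs the copy means correlated with r = 0.95 (0.34 with RPL37), a description over pairs that share arrays and, since copies are nearly identical in sequence, may share signal on the array. Probe sequences were not used here, so how far each spot reads both copies was not tested.

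RPL37 was the exception. RPL37A (YLR185W) had log2 ratios of -0.18, -0.15, 0.07 and 0.15, a mean of -0.03 ± 0.16 (n = 4, adjusted p = 0.918). RPL37B was higher on each of the 4 arrays: RPL37A minus RPL37B was -1.93, -1.39, -0.72 and -0.37 on the log2 scale, a mean difference of -1.10 ± 0.70 (SD, n = 4). It was the only pair of the 12 in which the same copy was higher on all 4 arrays. The pair was singled out after its values were seen, so the difference is given as a description; an exact sign-flip test over 4 arrays cannot give a p under 0.125. The spread of RPL37A over arrays was the smallest of the 38 genes, and its mean stood at the 44.9th percentile of all tested genes.

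**Figure D2:**
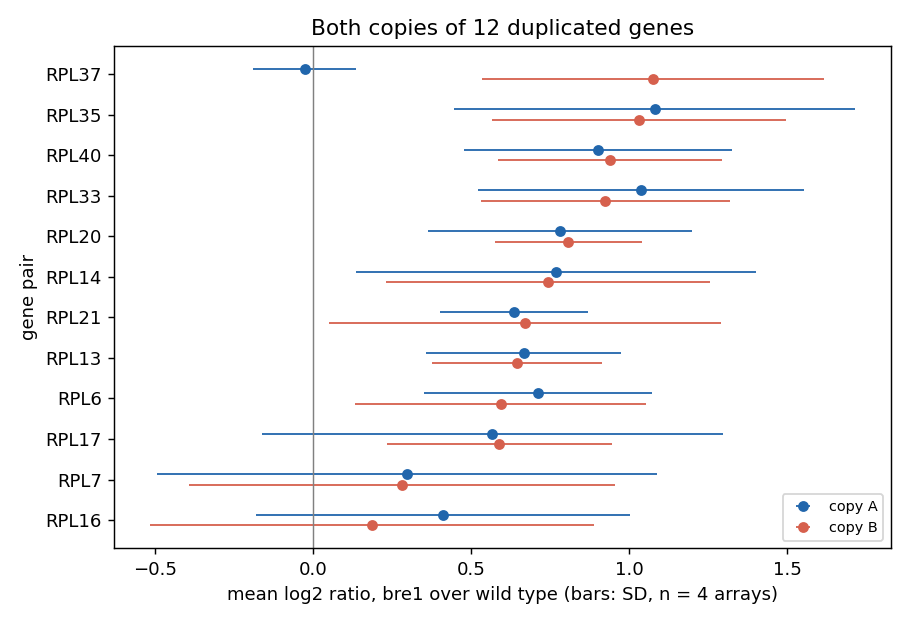
Mean log2 ratio of bre1 over wild type (x axis) for copy A (blue) and copy B (red) of the 12 pairs with both copies tested, with bars of 1 SD over 4 arrays. The copies of 11 pairs lie within 0.23 of each other, and RPL37A at -0.03 stands apart from RPL37B at 1.07.

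Genes with incomplete values mostly ran the same way. RPL27B (YDR471W) was at 1.12, 1.17 and 1.02 on arrays 1, 2 and 4, and RPL42A (YNL162W) at 1.28, 0.43 and 0.89 on arrays 2 to 4. RPL32 (YBL092W) was at 0.51, 1.32 and 0.54 on arrays 2 to 4, and thus highest on array 3, where most of the other genes were lowest. RPL23B (YER117W), whose protein lies at the subunit interface, was at 1.14, 0.07 and 1.29 on arrays 1, 3 and 4, and its copy RPL23A (YBL087C) at 0.46, 0.17 and 0.80 on arrays 2 to 4. In a fit that admitted genes with 3 values, RPL27B and RPL42A passed (adjusted p = 0.0182 and 0.0459), and RPL32, RPL23B and RPL23A did not (0.0636, 0.0859 and 0.164). RPL25 (YOL127W), RPL26B (YGR034W) and RPL31B (YLR406C) had no value. RPL2A, RPL19A, RPL22B, RPL29, RPL34A, RPL36B and RPL43B were not analysed here.

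The 38 genes were spread widely on the arrays where bre1 carried Cy3 and narrowly on the others. Their median log2 ratio was 0.78, 0.90, 0.28 and 0.98 on arrays 1 to 4, and the SD over genes was 0.68, 0.38, 0.59 and 0.35. Over all tested genes the median was -0.005, 0.09, -0.08 and 0.10, so most of them were below 0 on array 3. Their SD was 0.67, 0.57, 0.49 and 0.48, so on array 1 the spread of the 38 was like that of all genes. Array 3 gave the lowest value of 27 of the 38 genes and a value below 0 for 11. The share of all genes lowest on array 3 was not counted. Arrays 2 and 4 each had 1 gene of the 38 below 0, RPL37A on array 2 and RPL39 on array 4. The ranges that follow are those of the 38 genes. The range was -0.80 (RPL2B) to 1.85 (RPL35A) on array 1, -0.15 (RPL37A) to 1.74 (RPL42B) on array 2, -0.77 (RPL30) to 1.68 (RPL39) on array 3 and -0.24 (RPL39) to 1.41 (RPL14A) on array 4. The extremes of arrays 3 and 4 were held by the same gene at opposite ends, RPL39.

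The order of the genes on array 4 opposed that on arrays 1 and 3. Across the 38 genes, arrays 3 and 4 correlated with r = -0.74 and arrays 1 and 4 with r = -0.51, whereas across all 3840 genes these correlations were 0.20 and 0.24. Arrays 1 and 3, of the same dye, correlated with r = 0.82, and arrays 2 and 4 with r = 0.03, against 0.75 and 0.54 across all genes. The other pairs of opposite dye did not run against each other. Here r was 0.54 for arrays 1 and 2 and 0.10 for arrays 2 and 3, against 0.65 and 0.31 across all genes. These are descriptions over genes that share arrays, and intensities were not used. The same pair of arrays 3 and 4 gave r = -0.54 over 24 other large-subunit genes and r = -0.55 over 45 small-subunit genes, against 0.27 over 25 intron-containing genes outside the ribosome.

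The difference between dye orientations (arrays 2 and 4 minus arrays 1 and 3) ran from -1.21 for RPL39 to 1.53 for RPL28. Its median was 0.36 against 0.14 over all genes. It was above 0 for 30 of the 38 genes, against 2366 of all 3840 tested genes. In a limma fit with a dye term no gene of the 38 passed for that term (smallest adjusted p 0.112), as 0.104% of all tested genes did, the 4 genes PIR1, RPL10, CDA1 and RSC2. At an unadjusted p under 0.05 for that term there were 15 of the 38, against 734 of all tested genes (19.1%). Over all tested genes 734 were also above 0 on all 4 arrays, but the 2 sets share only 47 genes. By orientation, the median log2 ratio of the 38 genes was 0.52 with bre1 in Cy3 and 0.89 with bre1 in Cy5, against -0.04 and 0.08 over all genes. The 16 genes that did not pass had a median SD over arrays of 0.69, against 0.40 for the 22 that rose, but RPL37A (0.16) and RPL17B (0.36) lay below the latter; the test itself favours genes of small spread.

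Annotated gene length, introns included, moved with this pattern. Across the 38 genes, which span 542 to 1662 bp, length correlated with the log2 ratio with Spearman rho values of -0.53, -0.46, -0.42 and, on array 4, 0.63. Over 2091 genes of the same length range outside the ribosome these values were -0.22, -0.12, -0.14 and -0.05. The 11 genes under 800 bp (a limit chosen with the values known) had medians of 1.51, 1.12, 0.79 and 0.52 on arrays 1 to 4, and 8 of them rose. The 27 longer genes had medians of 0.66, 0.82, 0.10 and 1.02, and 14 rose. RPL30, at 548 bp, did not follow its length, with a dye difference of 1.29 beside -1.21 for RPL39 at 542 bp. In a further fit, the median of genes outside the ribosome in the same 500 bp bin of annotated length was taken off each array. There 20 of the 38 rose, with a median of 0.63. Of the 38, 33 lay in the bin of 500 to 1000 bp, where genes outside the ribosome had a median mean ratio of 0.10. Under 500 bp that median was 0.33, but with introns counted none of the 38 fell there. Coding lengths were not used, and whether length itself plays a part was not tested.

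**Figure D3:**
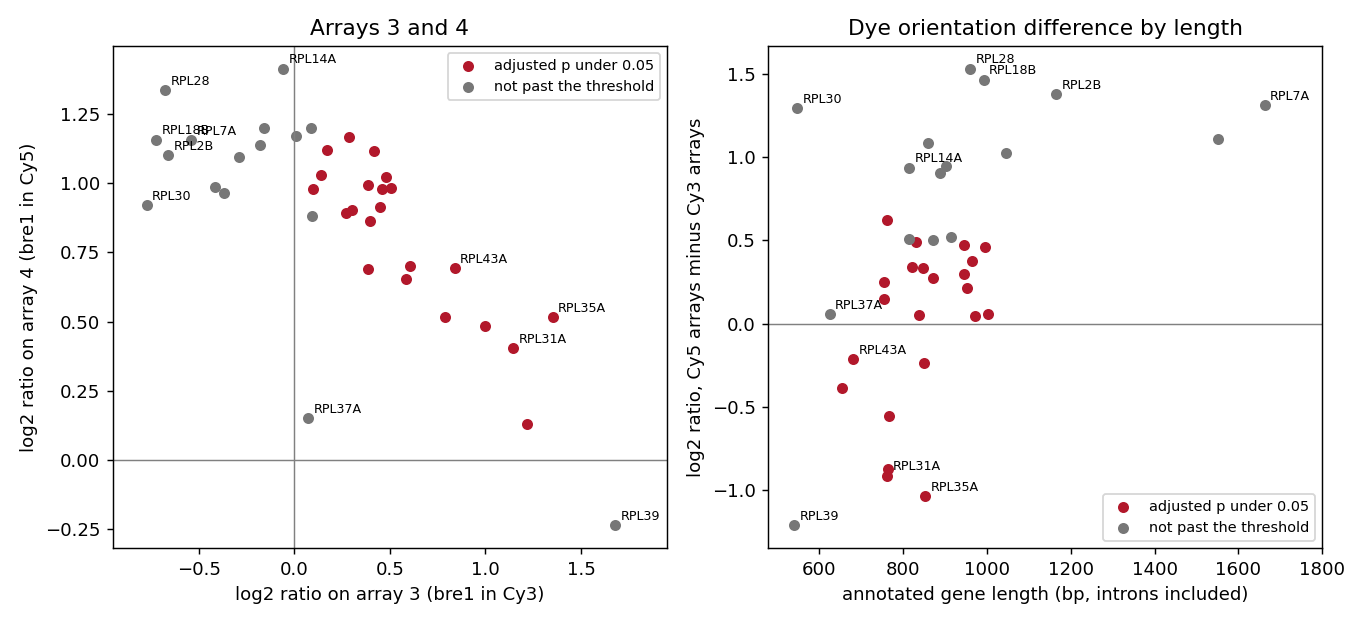
Left, log2 ratio on array 4 (y axis) against array 3 (x axis) for the 38 genes, which run from upper left (RPL18B, RPL28) to lower right (RPL39), with RPL37A, near 0 on both axes, off that run. Right, the difference in log2 ratio between Cy5 and Cy3 arrays (y axis) against annotated length in bp (x axis); red points passed an adjusted p of 0.05, and the genes above 0.65 on this axis are all grey.

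Several of the genes sit beside another ribosomal protein gene. RPL13A and RPL13B each diverge from a copy of RPS16, with means of 0.67 for RPL13A beside 0.64 for RPS16B and 0.65 for RPL13B beside 0.68 for RPS16A, although neither RPS16 copy passed. On its other side RPL13A converges with RPP1A, which had a mean of 0.44 and did not pass. RPL30 diverges from RPL24A, which had 1.37, 1.02, 1.09 and 0.93 and rose 2.14-fold, beside the mean of 0.41 for RPL30. RPL18B and RPS19B lie side by side in the same direction, with means of 0.16 and 1.03. RPL39 diverges from RPS22A, with means of 1.05 and 0.53. Differences between neighbours were not tested.

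Beside the 22 of 38 intron-containing genes, 3 of 24 other genes of the large subunit rose and none fell in limma (1 had an unadjusted p under 0.05 with a mean below 0), with a median of 0.41. These were both copies of RPL24, 2.14-fold (RPL24A) and 2.03-fold (RPL24B), and RPL11B, 1.67-fold. The 24 genes had medians by array of 0.08, 0.80, -0.46 and 1.02, so that both lists lay near 1 on array 4 and apart on arrays 1 and 3. With bre1 in Cy5 the median was 0.89 in both lists. With bre1 in Cy3 it was -0.05 for the 24 and 0.52 for the 38. Of the 24, 20 had a mean above 0, against 36 of the 38. For the dye term in limma, 15 of the 24 and 15 of the 38 had an unadjusted p under 0.05. Of 45 tested small-subunit genes, 16 rose and none fell (0 had an unadjusted p under 0.05 with a mean below 0), with a median of 0.72 and medians by array of 0.65, 0.97, -0.09 and 0.99. RPS10A rose 2.55-fold and RPS23B 2.11-fold. The lists differ in gene length and were not tested against each other.

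Of 25 tested genes outside the ribosome that are listed as intron-containing, 6 rose and 1 fell, and 17 means were above 0, with a median of 0.30 and medians by array of 0.07, 0.35, -0.04 and 0.37. MMS2, of ubiquitin conjugation in DNA repair, rose 2.10-fold, RPO26, a subunit shared by RNA polymerases, 1.79-fold and UBC5, a ubiquitin-conjugating enzyme gene, 1.64-fold, and the gene that fell was ECM33, of the cell wall, 1.98-fold. Among 9 tested regulators of ribosomal protein genes none passed in limma and 1 had an unadjusted p under 0.05, with a median of 0.05; STB3 had the smallest p (mean 0.40 ± 0.15, adjusted p = 0.105).

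**Figure D4:**
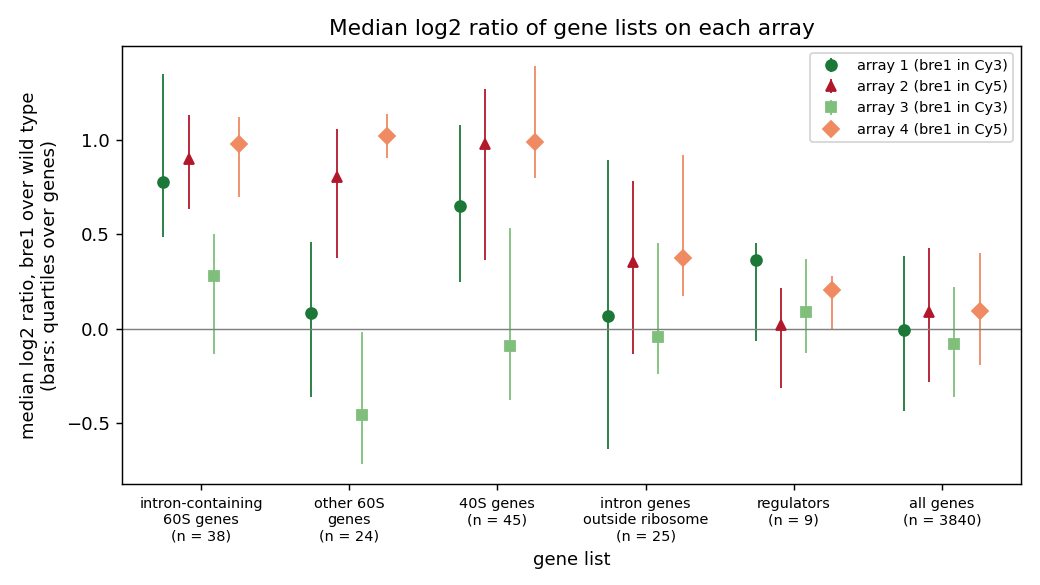
Median log2 ratio of bre1 over wild type (y axis) on each of the 4 arrays for the tested genes of each list (x axis), with bars from the lower to the upper quartile over genes. The intron-containing large-subunit genes have medians between 0.28 and 0.98, while the other large-subunit genes lie at 0.08 and -0.46 on arrays 1 and 3.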

How the data were processed

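The authors deposited 1 log2 ratio per reading frame and array, per the value table's columns; background correction, spot filter and probe design were not given in the sources used here. Log base, the single scale factor per array and the turning of arrays 1 and 3 were read from the spacing of the values. Scanner intensities were not used, so dim spots could not be filtered; precision is limited by having 4 arrays. Names, lengths and neighbours came from a RefSeq gene table (R64), which matched 5470 of 5500 frames; protein and promoter sequences, and hence the planned motif counts and the planned division of small-subunit genes by intron, were not used here.

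Genes with values on 4 arrays (3840) were fitted by limma 3.58.1 under R 4.3.3 (an intercept through lmFit, then eBayes, two-sided, Benjamini-Hochberg over all genes, threshold 0.05), after a test on simulated data. Errors are SDs over arrays. A second fit added dye orientation. Alternatives left out each array, centred or scaled arrays, weighted arrays, used a robust prior, admitted genes with 3 values, removed the trend on annotated length (coding length had been planned) and turned the Cy3 arrays. Members and lists were chosen with earlier results of these data known. Any tested gene of the list could be named, with the genes of smallest p of each other list, the single gene that fell among them, and neighbours. 1 gene of the list with incomplete values is not reported here.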

Additional observations from a re-analysis of the deposited data

Results flagged for a closer look

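Among the 38 tested genes and their median, 39 sets of 4 values were examined for 1 array far from the other 3, and 1 was found. About 1 in 20 independent sets would pass the limit by chance. These sets share arrays, and the median is drawn from the same genes, so the number to be found by chance here is not known. RPL22A was at 0.38 on array 3, against 0.69 to 0.73 on the others, which is far only because those 3 lie so close together.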

How the results depend on the processing

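Of the 38 genes, 22 were called in the main setting. Leaving out 1 array gave 0 to 18 calls among the 38, 0 without array 1 or array 2, 17 without array 3 (14 of the 22 and 3 others) and 18 without array 4 (17 of the 22 and 1 other); over all genes 410 calls became 0 to 677 (54, 0, 187 and 677 without arrays 1 to 4, where limma without array 2 still gave 815 at an unadjusted p under 0.05), and with 3 arrays the fit has fewer degrees of freedom. A dye term gave 30 of the 38 (897 over all genes), adding RPL28, RPL14A, RPL14B, RPL17A, RPL17B, RPL39, RPL6B and RPL21B. Array weights gave 25 (685 over all genes), centring or scaling of arrays 23, a robust prior 22, 3 or 4 values 24 of 43 and removal of the length trend 20, RPL36A (adjusted p = 0.0516) and RPL21A (0.0512) being lost there. The median of the 38 genes stayed between 0.61 and 0.90 in all of these. Turning the 2 arrays with bre1 in Cy3, which would undo the turning read from the values, gave 0 calls over all genes and 0 of the 38 in limma (208 and 7 at an unadjusted p under 0.05) and a median of 0.18. For the dye term itself, 0 of the 38 and 4 of all genes became 0 to 6 and 9 to 156 when 1 array was left out; centring and a robust prior changed neither count. All 22 called genes were above 0 on all 4 arrays, so leaving out or weighting arrays could not change a sign. Centring of arrays and removal of the length trend could have, and no called gene changed sign there. Each value already pairs bre1 with wild type within an array, so no replicate block was added.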
